A study of Mus musculus with 8 samples.

Results

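The genes described here are 9 markers of the contractile, myofibroblast-like state of fibroblasts and of YAP activity, followed in mouse embryonic fibroblasts (MEFs) early in reprogramming. They were taken by symbol from the 55487 genes of the count table, and each of the 9 was found once. Ccn1 and Ccn2 are also known as Cyr61 and Ctgf. On GRCm38, the 3 genes most discussed below are protein-coding and lie on chromosome 19 from 34241090 to 34255590 (Acta2, minus strand), chromosome 3 from 145646976 to 145649981 (Ccn1, minus strand) and chromosome 10 from 24595442 to 24598683 (Ccn2, plus strand). The list holds 6 genes of the smooth muscle contractile apparatus (Acta2, Tagln, Cnn1, Myl9, Tpm2 and Lmod1) and 3 genes induced by YAP and TGF-β (Ankrd1, Ccn1 and Ccn2).

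Polyadenylated RNA was sequenced in 8 libraries. All cells were C57BL/6 MEFs carrying 1 copy each of Rosa26-rtTA and Tet-O-OSKM, so that doxycycline switches on Oct4, Sox2, Klf4 and Myc, and all received doxycycline for 72 h in iPS cell medium. Cells of 2 embryos, named MEF 61.5 and MEF 61.3, were each given B12 + MAT2Ai (2 µM vitamin B12 with 2 µM PF-9366, which blocks MAT2A, the enzyme that makes SAM), SAM (100 µM S-adenosylmethionine), NSC (10 µM NSC636819, which blocks KDM4A and KDM4B, enzymes that demethylate histones) or B12 (2 µM vitamin B12), and B12 is the reference below unless another is named. A culture with doxycycline alone was not analysed here, so every difference is between supplemented cultures, and each treatment rests on n = 2 embryos. Levels are CPM (each count relative to the library's total) scaled by TMM, and RPKM where genes are compared with each other. A gene was called where the adjusted p of edgeR's quasi-likelihood test, fitted over 19392 genes with treatment and MEF as terms, was below 0.05.

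Myofibroblasts are fibroblasts that assemble actin stress fibres and pull on the matrix. This state rests on a pair of pathways in cultured fibroblasts. Actin polymerization frees MRTF cofactors, which switch on contractile genes through SRF at CArG boxes. Tension on the cytoskeleton moves YAP and its paralogue TAZ into the nucleus, where they act through TEAD factors. TGF-β feeds both, through SMAD proteins and through the tension of the cells it stimulates. Fibroblasts that reprogram shut down genes of the mesenchymal programme early on.

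The sequences before the genes' start sites were searched for the elements named above, to show where such letters stand in these genes. RefSeq gives a promoter window for 7 of the 9 genes (GRCm38.p6). A CArG box was counted only as CC, then 6 bases of A or T, then GG, so variants with a mismatch were not counted. In the 250 bases before the start, on both strands, 1 of the 7 held a CArG box (Myl9), 4 held GGAATG, the core that TEAD factors bind (Acta2, Lmod1, Ankrd1 and Ccn1), and 2 held CAGAC, a SMAD element (Acta2 and Ankrd1). Over all 32851 windows of this length the shares were 1.47%, 12.6% and 42.2%. Ankrd1 held GGAATG at 2 places, and the nearer of them shares 1 base with a CAGAC on the other strand. A match of letters is a description of the window and not a site. In GENCODE, only 33 (Acta2), 39 (Tpm2) and 0 (Ankrd1) bases of the window come before the first base annotated as exon, so those are not printed. For Myl9, the contractile gene with the CArG box, and for Ccn1, the gene that rose with MAT2Ai below, the bases up to the first annotated exon are shown on the gene's strand with the CArG box (Myl9) and the GGAATG match (Ccn1, read on the other strand) in capitals. They lie at chr2:156775214-156775419 (plus strand) and chr3:145649986-145650235 (minus strand).
Myl9: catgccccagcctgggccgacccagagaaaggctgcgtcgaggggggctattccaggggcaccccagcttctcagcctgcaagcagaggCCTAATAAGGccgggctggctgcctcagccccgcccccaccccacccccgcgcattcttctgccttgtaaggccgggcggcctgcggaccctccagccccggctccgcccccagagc
Ccn1: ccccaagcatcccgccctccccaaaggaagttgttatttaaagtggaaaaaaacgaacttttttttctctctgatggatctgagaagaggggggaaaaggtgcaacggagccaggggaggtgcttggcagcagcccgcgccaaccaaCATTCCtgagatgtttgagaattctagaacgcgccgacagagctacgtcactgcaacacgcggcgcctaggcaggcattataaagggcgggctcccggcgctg

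Each of the 9 genes had reads in every library, but at very unequal levels. Per length, Acta2 and Ccn1 reached the highest levels. Ccn1 stood above Acta2 in the 4 libraries of MEF 61.5 and below it in the 4 of MEF 61.3. Acta2, smooth muscle α-actin and the usual marker of myofibroblasts, lay between 78.6 and 147 RPKM over the 8 libraries. Ccn1, a secreted matricellular protein, lay between 57.9 and 207 RPKM. Next came Myl9, the regulatory light chain of non-muscle and smooth muscle myosin, at 49.0 to 77.3 RPKM, Tpm2, a tropomyosin that lies along actin filaments, at 27.3 to 35.6 RPKM, and Ccn2, the connective tissue growth factor, at 9.74 to 47.6 RPKM. The other 4 were low. Tagln, the actin-binding protein transgelin, had 2.18 to 5.63 RPKM, Lmod1, a nucleator of actin filaments, 1.13 to 1.65 RPKM, and Cnn1, calponin 1, 0.495 to 1.91 RPKM. Ankrd1, an ankyrin repeat protein of nucleus and sarcomere, had 0.102 to 0.340 RPKM, which rests on 10 to 31 reads per library. By these counts, Acta2 stood far above Tagln and Cnn1, its companions in smooth muscle, in every library. The span of Tagln overlaps Pcsk7, a protein-coding gene, and Gm48529, an antisense gene, on the opposite strand. Its count therefore depends on reads being assigned by strand, and the part of this in its low level was not tested. Ccn2 and Lmod1 also overlap genes on the opposite strand, Gm15270 (a processed transcript) and Gm22796 (an snRNA). Smooth muscle γ-actin (Actg2) and the skeletal and cardiac actins are close relatives of Acta2, and how reads matching several of them were counted is not given in the sources used here, so the split of reads between actin genes is uncertain.

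**Figure D1:**
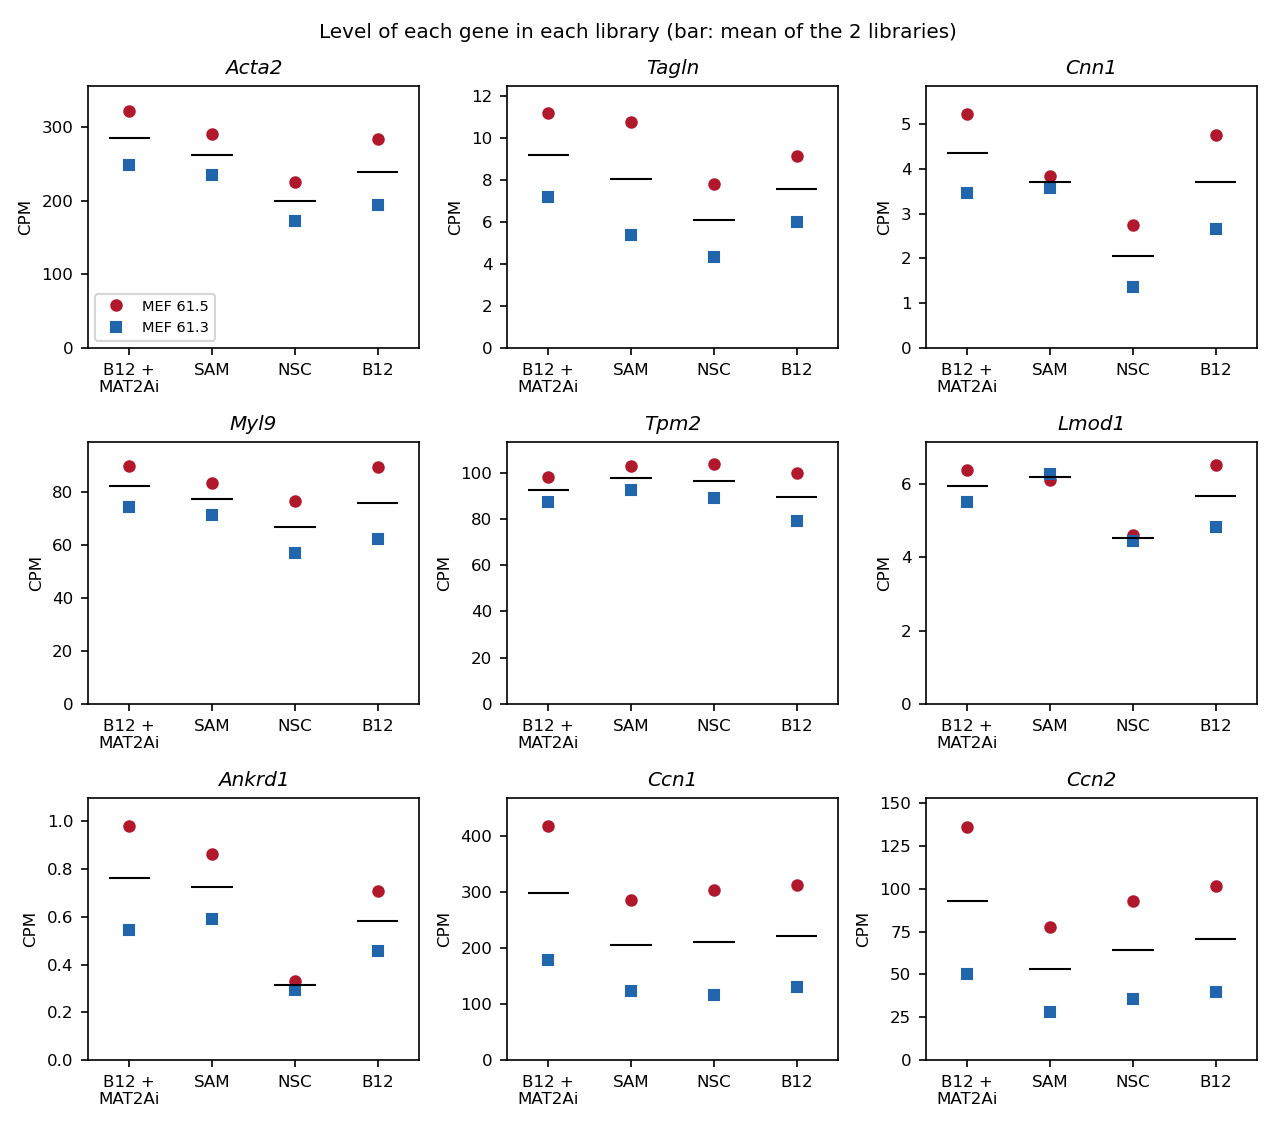
CPM of each of the 9 genes (y axes start at 0 and differ) in the 4 treatments, with a point for each library (red circles MEF 61.5, blue squares MEF 61.3) and a bar at the mean of the 2. NSC has the lowest mean for Acta2, Tagln, Cnn1, Myl9, Lmod1 and Ankrd1, B12 + MAT2Ai has the highest for Ccn1 and Ccn2, and MEF 61.5 lies above MEF 61.3 in every treatment except for Lmod1 under SAM.

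Between treatments, MAT2Ai added to B12 raised Ccn1. Ccn1 reached 418 CPM (MEF 61.5) and 179 CPM (MEF 61.3) with B12 + MAT2Ai, against 313 CPM (MEF 61.5) and 130.3 CPM (MEF 61.3) with B12. It was higher within each embryo, by 0.42 and 0.46 on the log2 scale, while the ranges of the treatments overlap. The fitted log2 fold change was 0.44 ± 0.06 (SE), or 1.36-fold, with an adjusted p of 0.0333. It was the 1 of the 9 genes called, where 0.0877% of all genes tested were called (17 of 19392), and 4 of the 9 had an unadjusted p below 0.05. The adjusted p was 0.972 when the MEF 61.3 library with B12 + MAT2Ai was left out and 0.401 when that of MEF 61.5 was, at log2 fold changes of 0.40 and 0.47.

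The other 8 genes had positive log2 fold changes as well and did not pass. Ccn2 had 136 CPM (MEF 61.5) and 50.1 CPM (MEF 61.3) with B12 + MAT2Ai, against 102 CPM (MEF 61.5) and 39.8 CPM (MEF 61.3) with B12. Its log2 fold change was 0.38 ± 0.06 with an adjusted p of 0.0632, which became 0.0107 without the B12 library of MEF 61.3 and 0.0173 with DESeq2. For Acta2 the values were 322 CPM (MEF 61.5) and 248 CPM (MEF 61.3) with B12 + MAT2Ai, and 285 CPM (MEF 61.5) and 194 CPM (MEF 61.3) with B12, a log2 fold change of 0.27 ± 0.07 with an adjusted p of 0.346. The median over the 9 genes was 0.27, beside -3.21e-05 over all genes tested. Tpm2 and Lmod1 were positive in MEF 61.3 and slightly negative in MEF 61.5.

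SAM against B12 gave a different gene. Ccn2 had 77.9 CPM (MEF 61.5) and 27.9 CPM (MEF 61.3) with SAM, against 102 CPM (MEF 61.5) and 39.8 CPM (MEF 61.3) with B12. It fell in each embryo, by 0.38 and 0.51 on the log2 scale, and the fitted log2 fold change was -0.44 ± 0.06 with an adjusted p of 0.000825. Leaving out any single library kept this call, and the adjusted p was below 0.05 in each such fit. Ccn2 was the 1 of the 9 genes called, where 7.71% of all genes tested were called, so the share among the 9 was close to that background. Its paralogue Ccn1 had 286 CPM (MEF 61.5) and 123 CPM (MEF 61.3) with SAM, a log2 fold change of -0.10 ± 0.06 against B12 with an adjusted p of 0.406. The contractile genes all had positive fitted log2 fold changes, from 0.02 ± 0.19 (Cnn1) to 0.15 ± 0.07 (Acta2, adjusted p = 0.252), and none was called. Within the embryos they shared no single direction. Acta2 and Tpm2 were positive in each embryo. Cnn1, Myl9 and Lmod1 were positive in MEF 61.3 and negative in MEF 61.5, and Tagln the reverse.

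Against B12, none of the 9 genes passed the edgeR test with NSC, and DESeq2 called 0 as well. The mean levels of Acta2, Tagln, Cnn1, Myl9, Lmod1 and Ankrd1 were lowest with NSC among the 4 treatments, and that of Tpm2 was lowest with B12. Mitochondrial genes took the largest share of counts with NSC in each embryo, 1.69% (MEF 61.5) and 2.33% (MEF 61.3), against 1.23% to 1.56% in the other libraries of MEF 61.5 and 1.57% to 1.66% in those of MEF 61.3, and the part of this in the differences with NSC was not tested. In this comparison 1.91% of all genes tested were called. At an unadjusted p below 0.05 there were 7 of the 9, each lower, beside 2412 of the 19392 genes tested, and 8 of the 9 had negative log2 fold changes with a median of -0.25, beside -0.00166 over all genes tested. Cnn1 came nearest to the threshold, with 2.74 CPM (MEF 61.5) and 1.35 CPM (MEF 61.3) with NSC, against 4.76 CPM (MEF 61.5) and 2.67 CPM (MEF 61.3) with B12. Its log2 fold change was -0.85 ± 0.21 with an adjusted p of 0.0732, and 46 to 181 reads per library lie behind it. The adjusted p of Cnn1 became 0.0190 without the SAM library of MEF 61.3, 0.0202 without that of MEF 61.5 and 0.0290 without the B12 library of MEF 61.3. Acta2 had 226 CPM (MEF 61.5) and 173 CPM (MEF 61.3) with NSC, against 285 CPM (MEF 61.5) and 194 CPM (MEF 61.3) with B12, a log2 fold change of -0.25 ± 0.07 with an adjusted p of 0.112, or 0.0294 without the B12 library of MEF 61.3. The 1 gene on the other side of 0 was Tpm2, at 0.11 ± 0.06 (adjusted p = 0.529).

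Set against SAM, 2 of the 6 contractile genes, Acta2 and Cnn1, were called lower with NSC. Acta2 had 226 CPM (MEF 61.5) and 173 CPM (MEF 61.3) with NSC, against 290.3 CPM (MEF 61.5) and 235 CPM (MEF 61.3) with SAM. Its log2 fold change was -0.40 ± 0.07, or 1.32-fold lower, with an adjusted p of 0.00406, and Acta2 stayed called when any single library was left out. The libraries of the treatments did not overlap for Acta2. This held for 4 of the 9 genes and for 7789 of the 19392 genes tested. Cnn1 fell by 0.87 ± 0.21 on the log2 scale (adjusted p = 0.0239), to 2.74 CPM (MEF 61.5) and 1.35 CPM (MEF 61.3) with NSC, against 3.84 CPM (MEF 61.5) and 3.58 CPM (MEF 61.3) with SAM. Ankrd1 fell by 1.22 ± 0.33 (adjusted p = 0.0411), to 13 reads (MEF 61.5) and 10 reads (MEF 61.3) with NSC, against 31 reads (MEF 61.5) and 20 reads (MEF 61.3) with SAM. At these counts the call was not held by DESeq2, whose adjusted p was 0.286.

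Ccn2 went the other way. It had 93.0 CPM (MEF 61.5) and 35.4 CPM (MEF 61.3) with NSC, against 77.9 CPM (MEF 61.5) and 27.9 CPM (MEF 61.3) with SAM, a log2 fold change of 0.30 ± 0.06 with an adjusted p of 0.0133. In all, 1 of the 9 genes was called higher and 3 lower with NSC than with SAM, where 9.52% of all genes tested were called. Lmod1 (-0.46 ± 0.13, adjusted p = 0.0572), Tagln (-0.40 ± 0.12, adjusted p = 0.0649) and Myl9 (-0.22 ± 0.08, adjusted p = 0.0987) lay on the same side as Acta2 without passing. Each of these 3 passed without either B12 library, at adjusted p-values of 0.0219 to 0.0220 for Lmod1, 0.0329 to 0.0330 for Tagln and 0.0399 to 0.0405 for Myl9, and Tagln did without the SAM library of MEF 61.3 (0.0308). Cnn1 lost its call without the NSC or the SAM library of MEF 61.3 (adjusted p = 0.178 and 0.101). Ccn2 lost it without any 1 of the NSC and SAM libraries, with adjusted p-values of 0.129 and 0.0735 without NSC of MEF 61.3 and of MEF 61.5, and of 0.0722 and 0.0643 without SAM of MEF 61.3 and of MEF 61.5. Ankrd1 stayed called only without a B12 library, and its adjusted p was 0.0650 to 0.327 without each of the other 6.

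**Figure D2:**
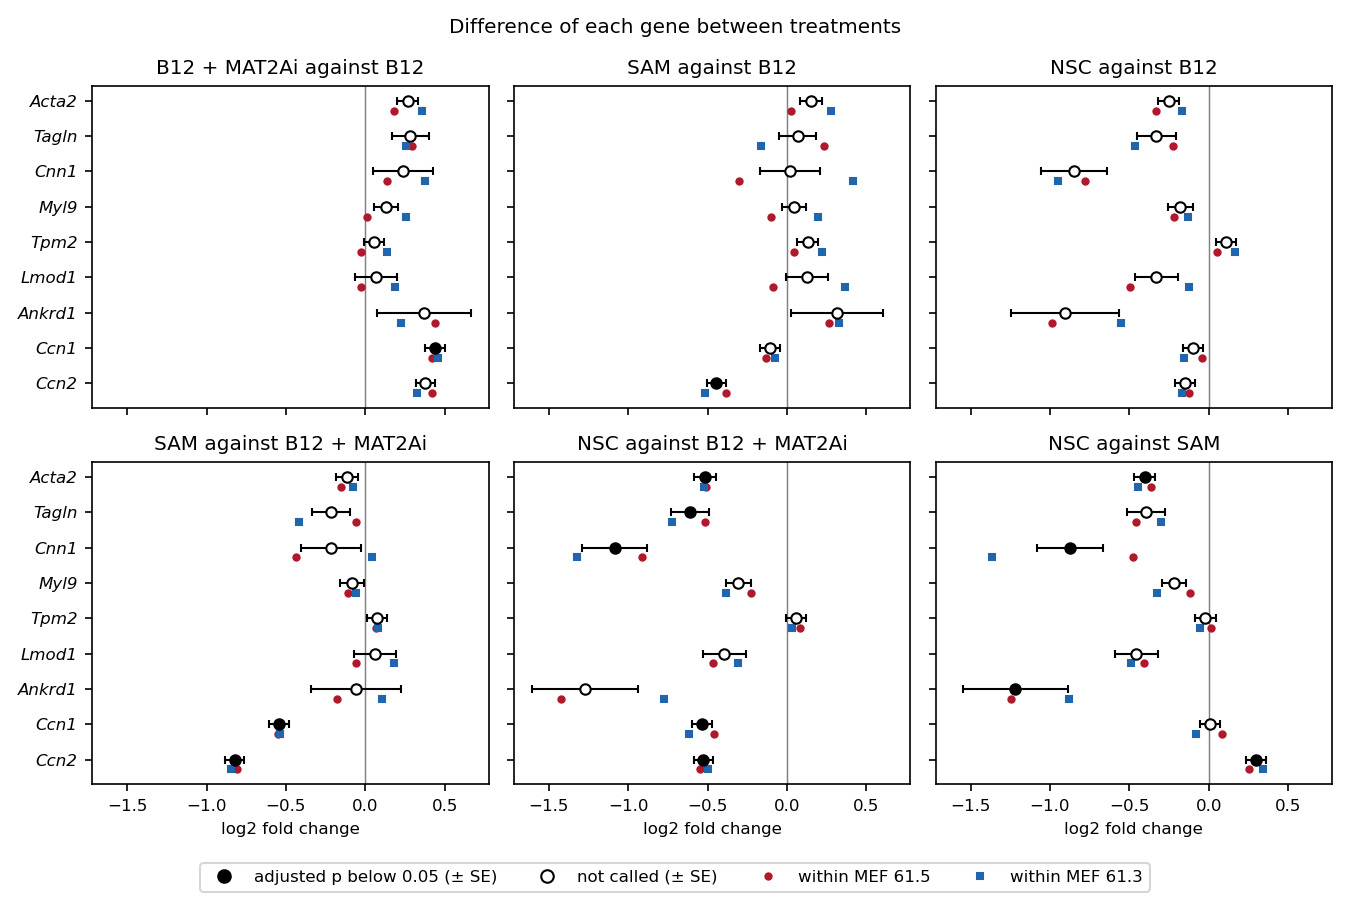
Log2 fold change (x axis) of each of the 9 genes in the 6 comparisons of treatments, with the fitted value ± SE (filled where the adjusted p was below 0.05) and below it the difference within MEF 61.5 (red circles) and MEF 61.3 (blue squares), which have no test. Ccn1 and Ccn2 are filled on the left side in both comparisons with B12 + MAT2Ai as the reference, and Acta2 and Cnn1 lie left of 0 wherever NSC is compared with another treatment.

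The order of the treatments by mean level differed between Ccn2 and Acta2, and the contractile genes shared no single order. For Ccn2 the means were 93.2 ± 61.0 CPM with B12 + MAT2Ai, 70.7 ± 43.7 CPM with B12, 64.2 ± 40.8 CPM with NSC and 52.9 ± 35.4 CPM with SAM (SD, n = 2 embryos), and of the neighbours in that order NSC and SAM differed by the test and the other pairs did not. For Acta2 the order was B12 + MAT2Ai (285 ± 52.3 CPM), SAM (263 ± 39.2 CPM), B12 (239 ± 64.4 CPM) and NSC (199 ± 37.8 CPM), and no pair of neighbours passed. Only pairs farther apart did: NSC was lower than SAM, as above, and lower than B12 + MAT2Ai by 0.52 ± 0.07 on the log2 scale (adjusted p = 0.00324). The SDs are those between the embryos, and the fit takes the embryo up as a term. Without that term no member passed in any comparison of treatments (0 of the 9 in each).

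The comparisons with B12 + MAT2Ai as the reference share its 2 libraries. SAM was lower than B12 + MAT2Ai in Ccn2 (-0.82 ± 0.06, adjusted p = 2.24e-05) and Ccn1 (-0.54 ± 0.06, adjusted p = 0.000275), 2 of the 9 genes, where 8.17% of all genes tested were called, and leaving out any single library kept these 2 calls. NSC was lower than B12 + MAT2Ai in 5 of the 9, where 3.58% of all genes tested were called. These were Ccn1 (-0.54 ± 0.06, adjusted p = 0.00174), Ccn2 (-0.53 ± 0.06, 0.00173), Acta2 (above), Cnn1 (-1.09 ± 0.21, 0.0184) and Tagln (-0.61 ± 0.12, 0.0211). Tagln had 7.80 CPM (MEF 61.5) and 4.33 CPM (MEF 61.3) with NSC, against 11.2 CPM (MEF 61.5) and 7.18 CPM (MEF 61.3) with B12 + MAT2Ai. Without the B12 + MAT2Ai library of MEF 61.3 only Ccn2 of the 9 was called, without that of MEF 61.5 only Ccn1, and without the NSC library of MEF 61.3 only Ccn1 and Ccn2. Adjusted p-values without these libraries were 0.0725, 0.0669 and 0.0524 for Acta2, 0.172, 0.181 and 0.197 for Cnn1, and 0.308, 0.140 and 0.243 for Tagln, while Ccn1 had 0.0533 without the first and Ccn2 0.0599 without the second. Tagln also lost its call without the NSC library of MEF 61.5 (0.0725). Myl9 missed the threshold (adjusted p = 0.0540) and passed without any 1 of the SAM and B12 libraries (0.00828 to 0.0449), and Ankrd1 (adjusted p = 0.0633) without either B12 library (0.0418 and 0.0427).

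Within embryos, the genes fell into partly overlapping groups by how they varied over the treatments. With the mean of each embryo removed from log2 CPM, the Pearson correlation of Acta2 over the 8 libraries was 0.95 with Myl9, 0.92 with Ankrd1, 0.91 with Cnn1, 0.90 with Lmod1 and 0.83 with Tagln. Ccn1 and Ccn2 correlated with each other (0.88), and with Acta2 at 0.66 and 0.31. Tagln lay between the groups, at 0.73 with Ccn1 and 0.58 with Lmod1. Tpm2 stood apart, at 0.02 with Acta2 and -0.56 with Ccn2. These values describe 8 libraries that share 4 treatments and 2 embryos, and are given without a test. Ankrd1, counted here among YAP targets, varied more like the contractile genes, on few reads.

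**Figure D3:**
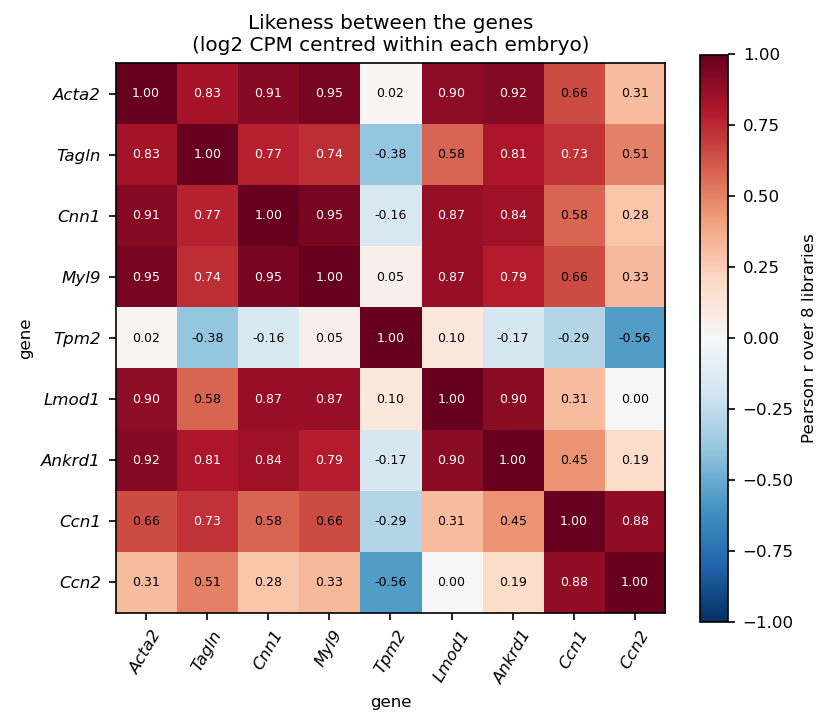
Pearson correlation (colour and number) between each pair of the 9 genes over the 8 libraries, from log2 CPM centred within each embryo. The block of Acta2, Cnn1, Myl9, Lmod1 and Ankrd1 and the pair of Ccn1 and Ccn2 lie between 0.79 and 0.95 and at 0.88, and the row of Tpm2 holds the lowest value (-0.56). Tagln, outside the block, lies at 0.58 (Lmod1) to 0.83 (Acta2) with the genes of the block.

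By the same measure, the genes most like Acta2 among 10513 genes with a mean of at least 10 CPM were Kcnj15, a potassium channel (0.98), Tnmd, tenomodulin of tendon cells (0.98), Tnc, the matrix protein tenascin C (0.97), Lrrc17 (0.96) and Ddah1 (0.96). Those most like Ccn2 were Ctso, a cathepsin, Apln, the peptide hormone apelin, Mgp, matrix Gla protein, Dolpp1 and Degs1, each at 0.99. The ranking describes these 8 libraries and has no test.

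Ccn1, Ccn2, Tagln, Myl9 and Tpm2 differed more between the embryos than in any comparison of treatments. The largest treatment differences of Acta2, Cnn1, Ankrd1 and Lmod1 were larger than those between embryos. In MEF 61.5 against MEF 61.3, each compared over its 4 libraries, 7 of the 9 genes were higher and none lower, where 18.8% of all genes tested were called. Ccn2 had 77.9, 93.0, 102 and 136 CPM in MEF 61.5 and 27.9, 35.4, 39.8 and 50.1 CPM in MEF 61.3, and the embryos did not overlap. Its log2 fold change was 1.42 ± 0.04, or 2.67-fold, with an adjusted p of 1.42e-08. Ccn1 had 286, 304, 313 and 418 CPM in MEF 61.5 and 117, 123, 130.3 and 179 CPM in MEF 61.3, also without overlap, with a log2 fold change of 1.27 ± 0.05 (adjusted p = 3.66e-08). In all, 5 of the 9 genes did not overlap between the embryos, beside 2244 of the 19392 genes tested. The contractile genes followed at smaller sizes: Tagln at 0.77 ± 0.08 (adjusted p = 8.32e-05), Cnn1 at 0.60 ± 0.14 (0.0118), Acta2 at 0.41 ± 0.05 (0.000147), Myl9 at 0.36 ± 0.05 (0.000734) and Tpm2 at 0.22 ± 0.05 (0.00618). Cnn1 lost its call without the B12 + MAT2Ai library of MEF 61.5 (adjusted p = 0.0516). Ankrd1 (0.59 ± 0.22, adjusted p = 0.0859) and Lmod1 (0.16 ± 0.09, adjusted p = 0.265) did not pass. The comparison is between the cultures of 1 embryo and 1 other embryo, so it says nothing of embryos in general.

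**Figure D4:**
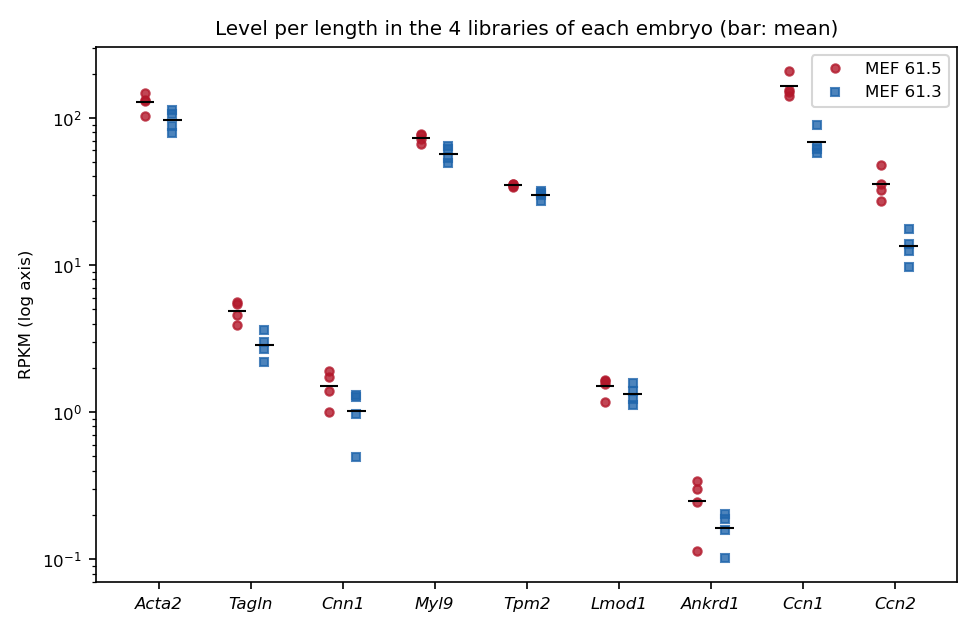
RPKM (log axis) of each of the 9 genes in the 4 libraries of MEF 61.5 (red circles) and of MEF 61.3 (blue squares), with a bar at each mean. The embryos separate fully for Ccn1, Ccn2, Tagln, Myl9 and Tpm2 and overlap for Acta2, Cnn1, Lmod1 and Ankrd1. Of all 19392 genes tested, 2244 separate fully between the embryos. The genes span from 0.102 RPKM (Ankrd1) to 207 RPKM (Ccn1).

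Other contractile genes were called between the embryos and in some comparisons of treatments. Of 14 further genes of the contractile apparatus 12 were tested, and 7 were higher in MEF 61.5 with none lower, where 18.8% of all genes tested were called. The muscle intermediate filament desmin (Des) had the largest difference, with means of 13.4 CPM in MEF 61.5 and 3.92 CPM in MEF 61.3 (1.77 ± 0.09, adjusted p = 4.89e-07), followed by Actg2 (0.53 ± 0.07) and Jph2 (0.45 ± 0.09), a junctophilin. Among treatments Actg2 stood out. It had 18.5 CPM (MEF 61.5) and 13.7 CPM (MEF 61.3) with SAM, against 10.96 CPM (MEF 61.5) and 7.25 CPM (MEF 61.3) with B12, a log2 fold change of 0.83 ± 0.09 with an adjusted p of 0.000158. Actg2 was the 1 gene of this list called in SAM against B12, where 7.71% of all genes tested were called. Acta2, by contrast, was not called. With NSC, Actg2 (-1.20 ± 0.10, adjusted p = 3.73e-05), Jph2 (-0.54 ± 0.13, 0.0272) and Csrp1, a LIM protein of actin bundles (-0.34 ± 0.06, 0.00414), were lower than with SAM, and none of the 12 was higher, where 9.52% of all genes tested were called. Against B12 + MAT2Ai, NSC lowered Actg2 (-0.50 ± 0.10), Mylk, the myosin light chain kinase (-0.43 ± 0.09), and Csrp1 (-0.28 ± 0.06), 3 of the 12, where 3.58% of all genes tested were called, and SAM raised Actg2 (0.71 ± 0.09). Against B12, edgeR called 0 of the 12 for B12 + MAT2Ai and 0 for NSC, with 3 at an unadjusted p below 0.05 in each, all lower, and DESeq2 called 0 in each.

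Of the SRF and MRTF genes and cytoskeletal SRF targets, 13 of 14 were tested. None was called by edgeR for B12 + MAT2Ai, SAM or NSC against B12, or for NSC against SAM, with 2, 4, 2 and 3 at an unadjusted p below 0.05, and DESeq2 called 0 in each. NSC was lower than B12 + MAT2Ai in Fhl2, a LIM cofactor (-0.41 ± 0.08, adjusted p = 0.0160), and Tpm4, a tropomyosin (-0.26 ± 0.06, 0.0351). In MEF 61.5 against MEF 61.3, 6 of the 13 were higher and 1 lower, where 18.8% of all genes tested were called. Fhl2 (0.30 ± 0.05), Srf itself (0.29 ± 0.06) and cytoplasmic γ-actin, Actg1 (0.28 ± 0.05), were at the top. Mrtfb, an SRF cofactor, was lower (-0.27 ± 0.06).

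The Hippo pathway, a kinase cascade that keeps YAP out of the nucleus, had its calls among treatments in the comparisons that involve SAM. YAP itself (Yap1) lay between 158 and 184 CPM and TAZ (Wwtr1) between 193 and 230.3 CPM over the 8 libraries. Of 18 genes of the pathway, SAM against B12 called 2 higher and 1 lower, where 7.71% of all genes tested were called. The TEAD factor Tead4 had 7.01 CPM (MEF 61.5) and 2.87 CPM (MEF 61.3) with SAM, against 2.26 CPM (MEF 61.5) and 1.29 CPM (MEF 61.3) with B12 (1.45 ± 0.18, adjusted p = 0.000301). Tead2, another TEAD factor, rose by 0.25 ± 0.06 (0.0244), and the kinase Stk4 fell by 0.24 ± 0.06 (0.0364). Tead4 (-1.20 ± 0.17) and Tead2 (-0.21 ± 0.06) were lower with NSC than with SAM, and higher with SAM than with B12 + MAT2Ai (1.21 ± 0.18 and 0.30 ± 0.06), as was the angiomotin relative Amotl1 (0.28 ± 0.07), 3 of the 18, where 8.17% of all genes tested were called. Of the 18, edgeR called 0 for B12 + MAT2Ai or NSC against B12, with 2 and 1 at an unadjusted p below 0.05 and 0 by DESeq2 in each. Between the embryos, Tead4 was the 1 gene of the 18 called higher in MEF 61.5 (0.97 ± 0.13) and Stk4 the 1 called lower. Stk4 had 36.9 to 42.0 CPM in MEF 61.5 and 39.8 to 48.8 CPM in MEF 61.3. In this comparison 18.8% of all genes tested were called. Ccn2 was lowest in mean level with SAM, and Tead4 was highest with SAM.

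Of 18 other YAP targets, 3 were called for NSC against SAM and 3 for NSC against B12 + MAT2Ai, where 9.52% and 3.58% of all genes tested were called. None passed for B12 + MAT2Ai against B12 by edgeR, with 3 at an unadjusted p below 0.05 and 1 called by DESeq2. SAM raised Dock5, a Rac activator, against B12 (0.27 ± 0.07, adjusted p = 0.0418) and B12 + MAT2Ai (0.62 ± 0.07, 0.000311). NSC raised Nt5e, the ecto-5′-nucleotidase CD73, to 26.2 CPM (MEF 61.5) and 38.2 CPM (MEF 61.3), against 18.5 CPM (MEF 61.5) and 20.8 CPM (MEF 61.3) with B12 (0.70 ± 0.12, adjusted p = 0.0109). Against SAM, NSC gave higher Gadd45a, a DNA damage response gene (0.50 ± 0.12, 0.0254), and Nt5e (0.41 ± 0.12, 0.0497) and lower Nuak2, a kinase (-0.61 ± 0.12, 0.0104). Against B12 + MAT2Ai it gave higher Nt5e (0.77 ± 0.12) and Dock5 (0.45 ± 0.07) and lower F3, tissue factor (-0.34 ± 0.06). No gene of this list passed the edgeR test in the comparison that called Ccn1. In MEF 61.5, 4 were higher, with Foxf2 (0.69 ± 0.11), Dock5 (0.22 ± 0.05) and Ajuba (0.21 ± 0.05) at the top, and 1, Crim1, lower (-0.21 ± 0.06). Between the embryos 18.8% of all genes tested were called.

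Among 15 TGF-β targets, Tgfbi, a matrix protein, was lower than with B12 + MAT2Ai under SAM (-0.33 ± 0.06, adjusted p = 0.00426) and NSC (-0.29 ± 0.06, 0.0221), and Bhlhe40, a transcription factor, under NSC (-0.40 ± 0.07, 0.0168). SAM against B12 called none of the 15 by edgeR, with 1 at an unadjusted p below 0.05 and 0 called by DESeq2. In MEF 61.5, 7 were higher, among them elastin, Eln (0.97 ± 0.07), and Smad7, an inhibitor of the pathway (0.49 ± 0.07). In the same comparison 2 were lower, Postn (-0.24 ± 0.05) and Sphk1 (-0.23 ± 0.07), where 18.8% of all genes tested were called.

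Of 17 genes of the TGF-β pathway itself, SAM against B12 called 1 higher and 2 lower, where 7.71% of all genes tested were called. The ligand gene Tgfb1 had 26.6 CPM (MEF 61.5) and 41.5 CPM (MEF 61.3) with SAM, against 48.9 CPM (MEF 61.5) and 65.8 CPM (MEF 61.3) with B12 (-0.77 ± 0.09, adjusted p = 0.000143). Ltbp1, which binds latent TGF-β, fell by 0.36 ± 0.07 (0.00809), and the co-receptor endoglin, Eng, rose by 0.31 ± 0.06 (0.0113). With NSC, Tgfb1 (0.54 ± 0.09) and Ltbp3 (0.28 ± 0.08) were higher than with SAM, where 9.52% of all genes tested were called. SAM against B12 + MAT2Ai lowered Tgfb1 (-0.57 ± 0.09) and Ltbp2 (-0.33 ± 0.09) and raised Eng (0.35 ± 0.06). The share of all genes tested that were called there was 8.17%. None of the 17 was called for B12 + MAT2Ai or NSC against B12 by edgeR, with 2 at an unadjusted p below 0.05 in each and 0 called by DESeq2. In MEF 61.5 the ligand gene Tgfb3 was higher (0.53 ± 0.04) and Tgfb1 (-0.63 ± 0.06), Tgfbr3 (-0.39 ± 0.05) and Tgfbr2 (-0.30 ± 0.04) lower. These were 1 and 4 calls in all, where 18.8% of all genes tested were called. Of the other CCN genes, Ccn5 was higher with SAM than with B12 (0.37 ± 0.08, adjusted p = 0.0128) and B12 + MAT2Ai (0.30 ± 0.08), and Ccn3 was lower with SAM (-0.40 ± 0.08) and NSC (-0.35 ± 0.08) than with B12 + MAT2Ai.

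Markers of other cells moved with some of these comparisons, and in bulk RNA fewer cells of a type and less RNA per cell cannot be told apart. The 9 fibroblast markers summed to 72384 to 105828 CPM, so these genes were abundant in every library. Of the 9, 6 were called lower in MEF 61.5 than in MEF 61.3, where 18.8% of all genes tested were called. With NSC, 3 collagen genes, Col1a1 (0.36 ± 0.08), Col1a2 (0.30 ± 0.07) and Col3a1 (0.44 ± 0.07), were called higher than with B12 + MAT2Ai. Col3a1 was also called higher with SAM than with B12 + MAT2Ai (0.43 ± 0.07). Of all genes tested, 3.58% (NSC) and 8.17% (SAM) were called against B12 + MAT2Ai. The 15 macrophage markers summed to 560.5 CPM (MEF 61.5) and 1731 CPM (MEF 61.3) with SAM, against 2784 CPM (MEF 61.5) and 5012 CPM (MEF 61.3) with B12. With SAM, 14 of the 15 were called lower, where 7.71% of all genes tested were called. With B12 + MAT2Ai the macrophage markers summed to 2167 CPM (MEF 61.5) and 4445 CPM (MEF 61.3), and with NSC to 2022 CPM (MEF 61.5) and 3964 CPM (MEF 61.3). In these treatments 0 and 4 of the 15 were called lower than with B12, where 0.0877% and 1.91% of all genes tested were called. For the epithelial markers the sums were 74.1 CPM (MEF 61.5) and 35.3 CPM (MEF 61.3) with SAM, 29.2 CPM (MEF 61.5) and 13.3 CPM (MEF 61.3) with B12 + MAT2Ai, 28.03 CPM (MEF 61.5) and 12.6 CPM (MEF 61.3) with NSC, and 27.8 CPM (MEF 61.5) and 13.9 CPM (MEF 61.3) with B12. With NSC, 14 of the 15 macrophage markers were called higher and 5 of the 7 epithelial markers tested lower than with SAM (9.52% of all genes). Against B12 + MAT2Ai, SAM had 14 macrophage markers lower and 5 epithelial markers higher (8.17%). In MEF 61.5, 14 macrophage markers were lower and 6 epithelial markers higher than in MEF 61.3 (18.8%). The part of these shifts in the lower Ccn2 and Tgfb1 with SAM, in the lower contractile genes with NSC and in the difference between embryos was not tested. Pericyte and vessel-wall markers, which would accompany contractile mural cells, summed to 147 to 176 CPM in all 8 libraries, and none of the 6 tested was called against B12 by edgeR in any treatment, with 0 at an unadjusted p below 0.05 and 0 by DESeq2. Between the embryos, 3 of the 6 were called higher in MEF 61.5, Rgs5 (0.64 ± 0.19), Mcam (0.31 ± 0.06) and Cspg4 (0.22 ± 0.07). In the same comparison 2 were lower, Abcc9 (-0.22 ± 0.07) and Kcnj8 (-0.18 ± 0.06), where 18.8% of all genes tested were called. Kcnj8 was higher with NSC than with SAM (0.30 ± 0.08), where 9.52% of all genes tested were called. The part of the fibroblast and mural markers in the differences of the 9 genes was not tested. Striated muscle markers summed to 10.0 to 13.0 CPM.

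**Figure D5:**
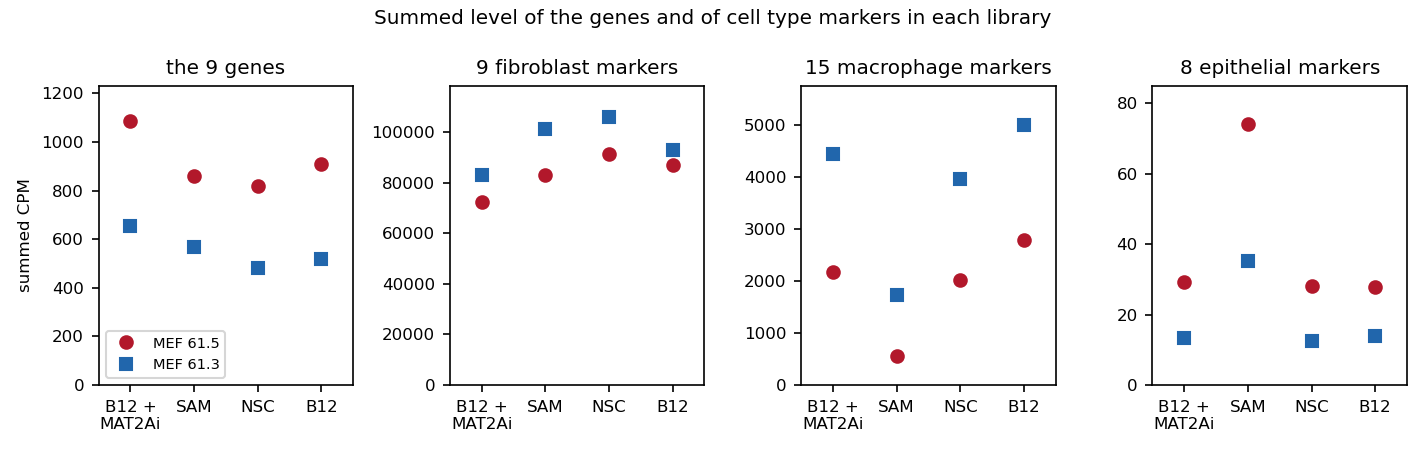
Summed CPM (y axes start at 0 and differ) of the 9 genes and of markers of fibroblasts, macrophages and epithelial cells in each treatment, with a point for each library (red circles MEF 61.5, blue squares MEF 61.3). The 9 genes sum highest with B12 + MAT2Ai in each embryo, while macrophage markers are lowest and epithelial markers highest with SAM.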

How the data were processed

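RNA of 8 MEF cultures was sequenced as stranded polyadenylated libraries. Per the labels and the study's methods, the authors mapped to mm10 (GRCm38) using STAR 2.5.2b, assigned reads by strand to Ensembl genes with featureCounts, added technical replicates together and deposited raw counts. Library totals were 27498180 to 38565685 counts, and this depth limits Ankrd1 and Cnn1 most.

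Genes passing edgeR's expression filter (minimum count 10, 19392 of 55487) were fitted in R 4.3.3 with edgeR 4.0.16 (TMM, quasi-likelihood, terms for treatment and for MEF, leaving 3 degrees of freedom), with Benjamini-Hochberg adjustment over all of them. DESeq2 1.42.0 was an alternative. Differences within a MEF used log2 CPM (prior count 2) and were not tested. RPKM used exonic lengths of GENCODE, in which 55227 IDs matched. Libraries of the same MEF deviated together (r = 0.424 to 0.559 over the 6 pairs of treatments), and the MEF number is that of an embryo in the labels, which gives the pairing.

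The 9 genes and the other lists were chosen with earlier results of these data known. Each comparison names the 9 genes and, per other list, the called genes of largest change, at most 3 in each direction, and the 5 genes most like Acta2 and Ccn2. Yap1 and Wwtr1 were named outside this rule, after their values were seen. Leaving out a library leaves 1 library in its treatment, which is then assumed to vary like the others. Some results of the TGF-β target list are not reported here.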

Additional observations from a re-analysis of the deposited data

Results flagged for a closer look

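Of 54 within-embryo comparisons of the 9 genes among treatments, 11 had opposite signs in the embryos, and none of these was a called difference. The differences between embryos were not tested, since the interaction of treatment and MEF leaves no residual degrees of freedom. For B12 + MAT2Ai against B12 the log2 differences were -0.030 (MEF 61.5) and 0.18 (MEF 61.3) for Lmod1 and -0.027 (MEF 61.5) and 0.14 (MEF 61.3) for Tpm2. For SAM against B12 they were -0.090 (MEF 61.5) and 0.37 (MEF 61.3) for Lmod1, -0.10 (MEF 61.5) and 0.19 (MEF 61.3) for Myl9, -0.31 (MEF 61.5) and 0.42 (MEF 61.3) for Cnn1, and 0.23 (MEF 61.5) and -0.16 (MEF 61.3) for Tagln. For NSC against SAM they were 0.087 (MEF 61.5) and -0.080 (MEF 61.3) for Ccn1 and 0.013 (MEF 61.5) and -0.053 (MEF 61.3) for Tpm2. For SAM against B12 + MAT2Ai they were -0.060 (MEF 61.5) and 0.18 (MEF 61.3) for Lmod1, -0.44 (MEF 61.5) and 0.041 (MEF 61.3) for Cnn1, and -0.18 (MEF 61.5) and 0.11 (MEF 61.3) for Ankrd1.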

How the results depend on the processing

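Of 920 values of the 9 genes under other settings, 817 kept their direction and their side of the threshold, 43 gained a call, 41 lost one and 19 reversed. The cause of these changes was not tested. Without the replicate block (no MEF term, so the pairing is ignored), 0 of the 9 genes were called in each comparison of treatments. The calls over all genes were then 0 (358 at an unadjusted p below 0.05), 0 (1463), 2, 1, 0 (1700) and 1 for B12 + MAT2Ai, SAM and NSC against B12, NSC against SAM, and SAM and NSC against B12 + MAT2Ai. The alternatives for the comparisons with B12 + MAT2Ai as reference were chosen after seeing the data.

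For B12 + MAT2Ai against B12, 2 of the 9 were called with DESeq2 or robust empirical Bayes and 3 with no filter on low counts or only the 4 libraries compared. Over all genes DESeq2 gave 42 calls, no filter 452 and the 4 libraries 313, against 17. For NSC against B12, no filter gave 2 of the 9 and 1025 calls in all, against 370, and the 4 libraries 1 of the 9. For NSC against SAM, no filter gave 7 of the 9 and 2895 calls, the 4 libraries 7 and 3340, and DESeq2 1158 in all, against 1847. For NSC against B12 + MAT2Ai, no filter gave 1873 calls and the 4 libraries 8 of the 9 and 2020 calls, against 695. DESeq2 gave 2388 calls between the embryos, against 3636.

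Leaving out a library gave 0 to 2 of the 9 for B12 + MAT2Ai against B12 (1 to 373 genes in all), 1 for SAM against B12 (898 to 1429), 0 to 2 for NSC against B12 (38 to 780), 1 to 7 for NSC against SAM (605 to 2717), 2 for SAM against B12 + MAT2Ai (600 to 2168), 1 to 7 for NSC against B12 + MAT2Ai (42 to 1672) and 6 to 7 between the embryos (2373 to 3820). The reversed values were of uncalled differences. Leaving out a library, the ranges for SAM against B12 were -0.11 to 0.20 (Tagln), -0.29 to 0.39 (Cnn1), -0.060 to 0.15 (Myl9) and -0.039 to 0.32 (Lmod1). For B12 + MAT2Ai against B12 they were -0.021 to 0.13 (Tpm2) and -0.10 to 0.25 (Lmod1), and for NSC against SAM -0.063 to 0.023 (Tpm2) and -0.069 to 0.074 (Ccn1). For SAM against B12 + MAT2Ai they were -0.53 to 0.15 (Cnn1), -0.18 to 0.0055 (Myl9), -0.074 to 0.20 (Lmod1) and -0.20 to 0.15 (Ankrd1). Cnn1 in SAM against B12 was -0.0044 without the replicate block, and Ccn1 in NSC against SAM was -0.0011 with DESeq2.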
